A study of Rattus norvegicus with 5 samples.

Results

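The muscle microRNAs miR-1, miR-133a, miR-206 and miR-133b, and miR-3571, which is annotated on the strand opposite miR-1, were followed in rat hearts under pressure overload. The members were taken by name from the array's spots, and these 5 probes are 5 of the 678 rat miRNA probes, each printed as 4 spots. On every array, all 5 exceeded the detection floor. The floor was set on each array from its empty and negative-control spots, and levels are given in units of signal after the authors' subtraction of background. The rats were male SD animals of 6 to 8 weeks and 200 to 300 g. Transverse aortic constriction (TAC) narrows the aortic arch between the carotid arteries and loads the left ventricle with pressure, while sham-operated rats had similar surgery with no constriction. There was 1 array of hearts 5 days after sham surgery, per its label. TAC had 1 array for each of 4 times, namely days 5, 10, 15 and 20. By these labels days 10, 15 and 20 had no sham array of their own. TAC cannot be told apart from time since surgery or age in their ratios. Each array was hybridized with Hy3-labelled RNA of the hearts of 5 rats, so a value is that of a pool, and fewer cells of a type cannot be told apart from less RNA per cell. No spread between hearts can be given, and the SD and SE printed below cover only the 4 spots of a probe on an array. There is no read depth for an array; having 1 per group is what limits precision here.

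MiR-1 and miR-133a are processed from shared transcripts in heart and skeletal muscle, and miR-206 and miR-133b form the related cluster best known from skeletal muscle. In mice, miR-1 restrains growth and differentiation genes such as Hand2 and Hdac4, and miR-133a restrains serum response factor and cyclin genes. A miRNA selects its targets mainly through its seed, the bases that follow the first base of its 5′ end, so that miRNAs with the same seed share many targets. A hairpin precursor yields a guide strand and, in smaller amounts, an opposite strand that older array names mark with a star.

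The mature sequences below show which members share a seed and how little else separates them. They are from RefSeq (build GRCr8), matched by name for 5 of 5 members, run 5′ to 3′, and have bases 2 to 8, the seed, in capitals.
miR-1: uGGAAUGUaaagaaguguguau
miR-206: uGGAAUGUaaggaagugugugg
miR-133a: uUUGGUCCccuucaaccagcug
miR-133b: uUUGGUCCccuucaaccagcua
miR-3571: uACACACUucuuuacauuccaua
The seed GGAAUGU was held by 3 of 693 rat mature names, namely miR-1, miR-206 and miR-1b, and UUGGUCC by 2, miR-133a and miR-133b. MiR-1 and miR-206 were identical at 19 of 22 bases and differed by A11G, A21G and U22G, with positions counted from 1 at the 5′ end and the base of miR-1 first. MiR-133a and miR-133b were identical at 21 of 22 bases and differed by G22A, with the base of miR-133a first. The sequences of the array's capture probes were not used here. How far the signals of miR-133a and miR-133b, of miR-1 and miR-206, and of miR-3571 are those of separate molecules was therefore not tested. MiR-1b is closer to miR-1 than miR-206 is, identical at 21 of 22 bases with G17A as the difference. Its part in the signal of miR-1 was not tested either.

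The first cluster lies on chromosome 18, where miR-133a maps to chr18:2157886-2157907 and miR-1 to chr18:2160339-2160360, both on the minus strand. Their hairpins, Mir133a1 and Mir1, are 2368 bases apart and lie within the span of Mib1, a gene for an E3 ubiquitin ligase that acts on Notch ligands. The second cluster lies on chromosome 9, with miR-206 at chr9:30590747-30590768 and miR-133b at chr9:30594629-30594650, both on the plus strand. The hairpins Mir206 and Mir133b are 3801 bases apart, within the span of the long non-coding RNA LOC120094648. MiR-3571 maps to chr18:2160340-2160362 on the plus strand, and its hairpin covers all 87 bases of the Mir1 hairpin. The hairpins of this locus are printed because they show how the strands relate, with mature miRNAs in capitals.
Mir1, minus strand: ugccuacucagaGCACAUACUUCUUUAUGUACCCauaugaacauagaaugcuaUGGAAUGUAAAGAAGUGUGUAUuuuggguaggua
Mir3571, plus strand: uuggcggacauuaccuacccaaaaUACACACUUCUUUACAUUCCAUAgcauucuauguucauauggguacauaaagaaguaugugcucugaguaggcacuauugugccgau
The reverse complement of miR-3571, with the run shared with miR-1 in capitals, is the following.
miR-3571, reverse complement: uaUGGAAUGUAAAGAAGUGUGUA
Bases 1 to 21 of miR-1 are therefore an unbroken complement of miR-3571, against a run of 10 bases for miR-206.

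The mean signal of miR-1 (rno-miR-1 on the array) was below that of sham on each TAC array, and its spots were apart from sham on day 5. Its mean was 15260 ± 930 units (SD over 4 spots) on the sham array and 11366 ± 815, 13462 ± 2373, 13415 ± 1778 and 13756 ± 1668 in turn after TAC, in the order of days 5, 10, 15 and 20, as in the lists that follow. On day 5 all 4 spots, from 10503 to 12432 units, lay below the lowest sham spot at 14387. On days 10, 15 and 20 the spots overlapped those of sham.

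MiR-133a (rno-miR-133a), which shares the locus of miR-1, was brightest on TAC day 10. Its mean was 30006 ± 2111 units on the sham array and 26872 ± 3031, 42009 ± 7141, 30619 ± 1519 and 25847 ± 2035 in turn after TAC. The day 10 spots, from 31998 to 47646 units, all lay above the highest sham spot at 31974, the lowest of them by a narrow margin. On the other 3 TAC arrays the spots overlapped those of sham.

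MiR-133b (rno-miR-133b), its near copy from chromosome 9, was dimmest on TAC day 5. Its mean was 40145 ± 945 units on the sham array and 27007 ± 1509, 47241 ± 10041, 40648 ± 2877 and 34423 ± 1863 in turn after TAC. All spots of days 5 and 20 lay below all sham spots, and those of days 10 and 15 overlapped them. On day 10 the spots differed between the 2 regions of the slide that carry them. The pair in blocks 1 to 18 read 38073 and 39333 units, and the pair in blocks 19 to 36 read 53535 and 58023.

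MiR-206 (rno-miR-206), the partner of miR-133b on chromosome 9 and of miR-1 by seed, was high early and low late. Its mean was 1560 ± 264 units on the sham array and 3830 ± 850, 3305 ± 737, 1563 ± 266 and 1234 ± 49.0 in turn after TAC. The signal was thus 2.46, 2.12, 1.002 and 0.791 times sham in turn. The lowest spots of days 5 and 10, 2943 and 2451 units, lay above the highest sham spot at 1945, the day 15 spots overlapped sham, and the highest day 20 spot, 1282, lay below the lowest sham spot at 1357.

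MiR-3571 (rno-miR-3571), the antisense of miR-1, stood above sham on every TAC array. Its spots read 535, 719, 637 and 676 units on sham, with a mean of 642 ± 78.7. On day 5 the spots were 3453, 4762, 2777 and 2544 units with a mean of 3384 ± 996, and on day 10 they were 2711, 1653, 1863 and 2345 with a mean of 2143 ± 477. On day 15 they were 2298, 2106, 1847 and 1747 units with a mean of 1999.5 ± 250, and on day 20 they were 900, 1728, 774 and 792 with a mean of 1048.5 ± 456. No TAC spot overlapped a sham spot, and the mean was 5.27, 3.34, 3.12 and 1.63 times sham in the order of the days. On day 20, 1 spot at 1728 units stood apart from the other 3. The arrays' median background fell in the same order as this signal and that of miR-206 among the TAC arrays. It was 206, 152, 144 and 101 units on days 5 to 20, against 104 on sham. Its part in the results of miR-3571 and miR-206 was not tested.

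**Figure D1:**
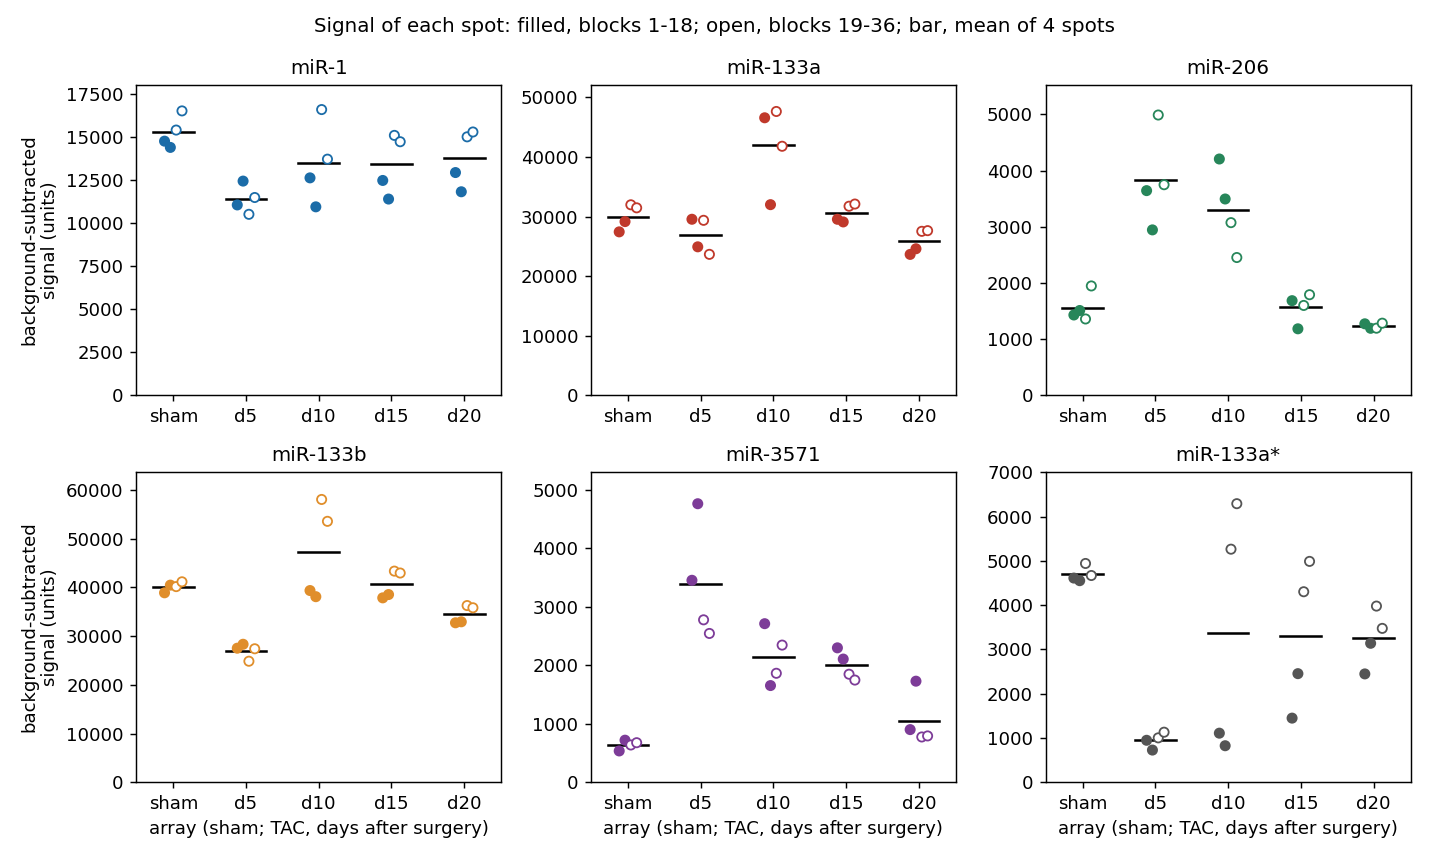
Background-subtracted signal (units, linear axis from 0) of every spot of the 5 members and of miR-133a* on the sham array and the TAC arrays of days 5, 10, 15 and 20 (d5 to d20). Filled points are spots in blocks 1 to 18 of the slide, open points those in blocks 19 to 36, and bars are means of 4 spots; the miR-3571 spots of every TAC array lie above the sham spots, and those of miR-206 do so on days 5 and 10.

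Of the opposite strands, the one from the miR-133a hairpin was measurable. MiR-133a*, RefSeq's miR-133a-5p, is printed with its seed in capitals, since its level and that of miR-133a did not move alike.
miR-133a*: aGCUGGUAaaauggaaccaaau
The mean of miR-133a* was 4696 ± 172 units on the sham array and 952 ± 169, 3374 ± 2813, 3299.8 ± 1634 and 3262 ± 643 in turn after TAC. All spots of day 5, at most 1131 units, and of day 20, at most 3981, lay below the lowest sham spot at 4555. On day 10 the spots disagreed between the regions of the slide, at 1109 and 825 units in blocks 1 to 18 against 5267 and 6295 in blocks 19 to 36. The opposite strands miR-1*, miR-133b* and miR-206* were below the floor on all 5 arrays. So was miR-3582, annotated by RefSeq as miR-133c, which is complementary to miR-133a over 21 bases in the way that miR-3571 is to miR-1. It was looked up after the values of miR-3571 were seen.

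To set the arrays on a common scale, the spots were background corrected and quantile normalized over the rat miRNA probes, and the log2 ratio of each TAC array to sham was taken from the mean of the 4 spots. On TAC day 5, 4 of the 5 members read 2-fold or more above sham and 0 below, while 67.8% of all 152 rat miRNAs above the floor on both arrays passed 2-fold, 41.4% higher and 26.3% lower. On day 10, 2 members read 2-fold or more higher, against 29.4% of 197 miRNAs in either direction, 13.7% higher and 15.7% lower. On day 15 the count was 1 member, miR-3571, against 7.46% of 201 in either direction, 4.98% higher and 2.49% lower. On day 20 it was 0 members, against 1.73% of 231 in either direction, 1.3% higher and 0.433% lower. The median ratio of the 5 members was 1.32, 0.92, 0.20 and 0.01 on days 5 to 20, beside 0.56, -0.01, -0.01 and -0.08 for all miRNAs. These percentages describe 2 arrays at a time and are no test across animals.

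MiR-3571 had the highest ratio of the members on each day. It read 2.80 ± 0.32 (SE over spots) on day 5, a fold of 6.95. The later arrays read 1.63 ± 0.14, 1.81 ± 0.11 and 0.60 ± 0.31. From the top it ranked 3 of 152, 4 of 197, 3 of 201 and 21 of 231 miRNAs. Its spots lay above all sham spots on each of the 4 arrays on this scale too.

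MiR-206 read 1.89 ± 0.26 on day 5, a fold of 3.70, and 1.04 ± 0.18 on day 10, a fold of 2.05. It read 0.20 ± 0.17 on day 15 and -0.30 ± 0.09 on day 20. Its rank from the top went from 21 of 152 on day 5 to 25 of 197, 70 of 201 and 170 of 231. The scaled spots lay above sham on days 5 and 10, overlapped it on day 15 and lay below it on day 20, as the unscaled spots did.

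The ratios of the other 3 members varied with the day. MiR-133a read 1.32 ± 0.11, 0.92 ± 0.15, 0.50 ± 0.06 and 0.35 ± 0.12 on days 5 to 20. MiR-1 read 1.10 ± 0.10, 0.30 ± 0.15, -0.03 ± 0.14 and -0.10 ± 0.07, and miR-133b read 0.50 ± 0.06, 0.27 ± 0.17, 0.16 ± 0.07 and 0.01 ± 0.08. MiR-1 on day 5 was at rank 58 of 152 and miR-133b at rank 80, both between the 25th and 75th percentile of all miRNAs. MiR-133a lay above the 75th percentile on days 10, 15 and 20, which was 0.67, 0.33 and 0.26. MiR-133a* read -1.48 ± 0.09 on day 5, a 2.80-fold lower level, and -0.74 ± 0.71, -0.31 ± 0.37 and -0.24 ± 0.15 later.

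**Figure D2:**
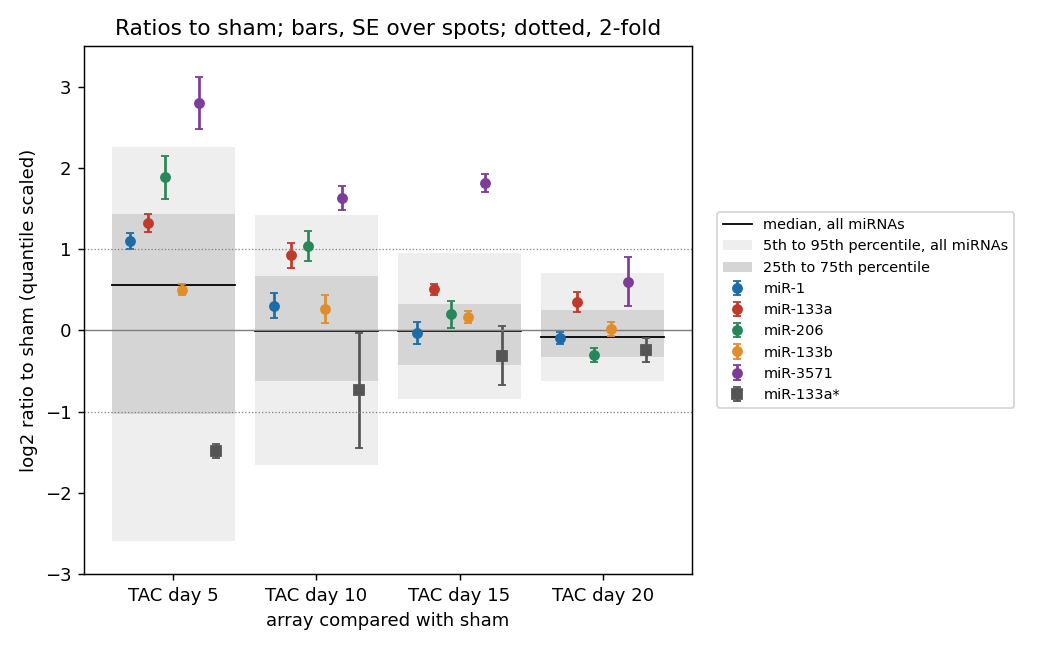
Log2 ratio to sham (vertical axis, quantile scaled) of the members and of miR-133a* on each TAC array, with bars for the SE over spots. The grey bands span the 5th to 95th and the 25th to 75th percentile of all miRNAs above the floor on both arrays, the black line is their median and the dotted lines mark 2-fold; miR-3571 lies above the outer band on days 5, 10 and 15.

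The direction of the brightest members on day 5 rested on the scaling. MiR-1 and miR-133b had lower unscaled signals than sham in all 4 spots of day 5, at 0.745 and 0.673 times sham, yet their quantile-scaled ratios were above 0. With each array scaled by its median, the day 5 ratio was -0.19 for miR-1, 0.06 for miR-133a and -0.35 for miR-133b. With the spike-in probes as the reference, these ratios were 1.96, 2.21 and 1.80. Those spike-ins were dimmer on the TAC arrays relative to rat miRNAs, with medians of -2.14, -2.26, -0.995 and -0.61 in the order of the days after median scaling. MiRNAs of similar brightness to miR-1 went both ways on day 5, with miR-29b at 1.14 and miR-143, miR-23b and miR-30c at -3.69, -2.69 and -1.73.

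Since each scaling also moved the median of all miRNAs, the members were set against that median under 11 processing settings. Median scaling and spike-in scaling each shift an array by a constant. They therefore give the same difference from that median and are not separate checks of it. On day 5 the median itself was 0.56 with quantile scaling, 0.36 with median scaling, -0.14 with quantile scaling over all probes, 2.50 with spike-in scaling and 0.34 in the authors' deposited values. MiR-206 lay above it in 11 of 11 settings, by 1.05 to 1.49, and miR-3571 in 11 of 11, by 1.66 to 2.70. MiR-1 lay above it in 7, from -0.55 to 0.67, miR-133a in 9, from -0.30 to 0.88, and miR-133b in 2, from -0.70 to 0.06.

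On days 10 and 15, miR-133a, miR-206 and miR-3571 lay above the median of all miRNAs in 11 of 11 settings. The excess of miR-133a ran from 0.36 to 1.30 on day 10 and from 0.17 to 0.83 on day 15. That of miR-206 ran from 0.18 to 1.72 and from 0.02 to 0.38, and that of miR-3571 from 1.06 to 2.10 and from 1.38 to 2.25. On day 20, miR-3571 lay above the median in 11 settings, by 0.15 to 1.18, and miR-206 lay below it in all 11, from -0.42 to -0.07.

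**Figure D3:**
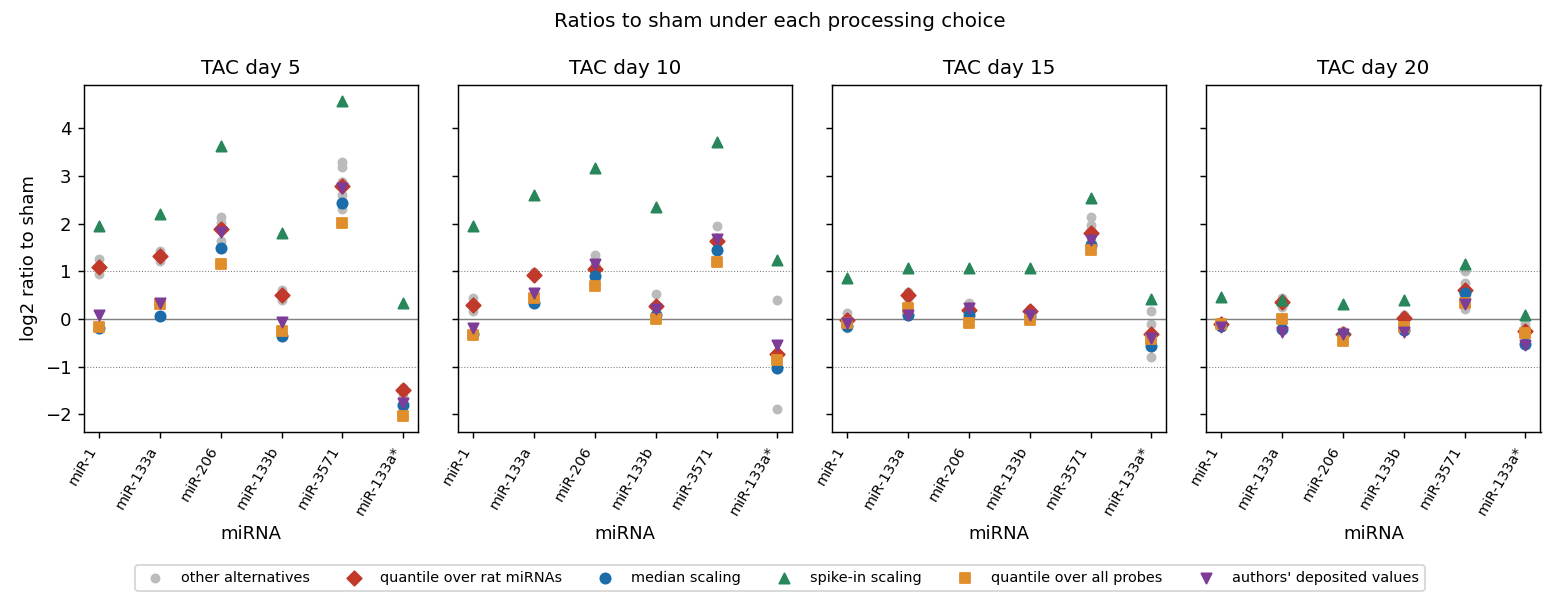
Log2 ratio to sham (vertical axis) of each member and of miR-133a* under each processing setting, with 1 panel per TAC array and dotted lines at 2-fold. MiR-3571 stays above 2-fold under every setting on days 5, 10 and 15, and miR-206 on day 5, while miR-1 and miR-133b on day 5 fall on both sides of 0.

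Differences between the ratios of 2 miRNAs on the same arrays do not depend on a common factor, and they compared the members within and across the clusters. MiR-133a minus miR-1, the pair from chromosome 18, was 0.22 ± 0.15, 0.62 ± 0.22, 0.53 ± 0.15 and 0.45 ± 0.14 on days 5 to 20 with quantile scaling. From the unscaled signals it was 0.27, 0.67, 0.22 and -0.07, so the sign on day 20 differed between the scales. MiR-133b minus miR-206, the pair from chromosome 9, was -1.38 ± 0.27, -0.77 ± 0.25, -0.03 ± 0.19 and 0.32 ± 0.12. Its unscaled values were -1.87, -0.85, 0.01 and 0.12, so the ratios of the chromosome 9 pair were apart on day 5 and close on day 15. On day 10 the difference varied with the region of the slide: blocks 1 to 18 gave -1.32, and blocks 19 to 36 gave -0.22.

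The 2 seed families were also compared within themselves. MiR-206 minus miR-1 was 0.79 ± 0.28, 0.74 ± 0.24, 0.23 ± 0.22 and -0.21 ± 0.11, and 1.72, 1.26, 0.19 and -0.19 unscaled. MiR-133a minus miR-133b was 0.82 ± 0.13, 0.66 ± 0.23, 0.34 ± 0.10 and 0.34 ± 0.15, and 0.41, 0.25, 0.01 and 0.01 unscaled. By region of the slide, miR-206 minus miR-1 was 0.38 in blocks 1 to 18 and 1.20 in blocks 19 to 36 on day 5, and 1.18 and 0.30 on day 10. The ratio of miR-206 thus stood above that of its seed partner on days 5 and 10 on both scales, while the gap between miR-133a and miR-133b on days 15 and 20 was present with quantile scaling and near 0 without it.

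The sense and antisense strands at the miR-1 locus differed on each TAC array. MiR-3571 minus miR-1 was 1.70 ± 0.34, 1.33 ± 0.21, 1.84 ± 0.18 and 0.70 ± 0.31, and 2.82, 1.92, 1.83 and 0.86 unscaled. The 2 strands of the miR-133a hairpin were farthest apart on day 5, where miR-133a minus miR-133a* was 2.80 ± 0.14, against 1.66 ± 0.73, 0.81 ± 0.37 and 0.60 ± 0.19 later. The unscaled values were 2.14, 0.96, 0.54 and 0.31.

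**Figure D4:**
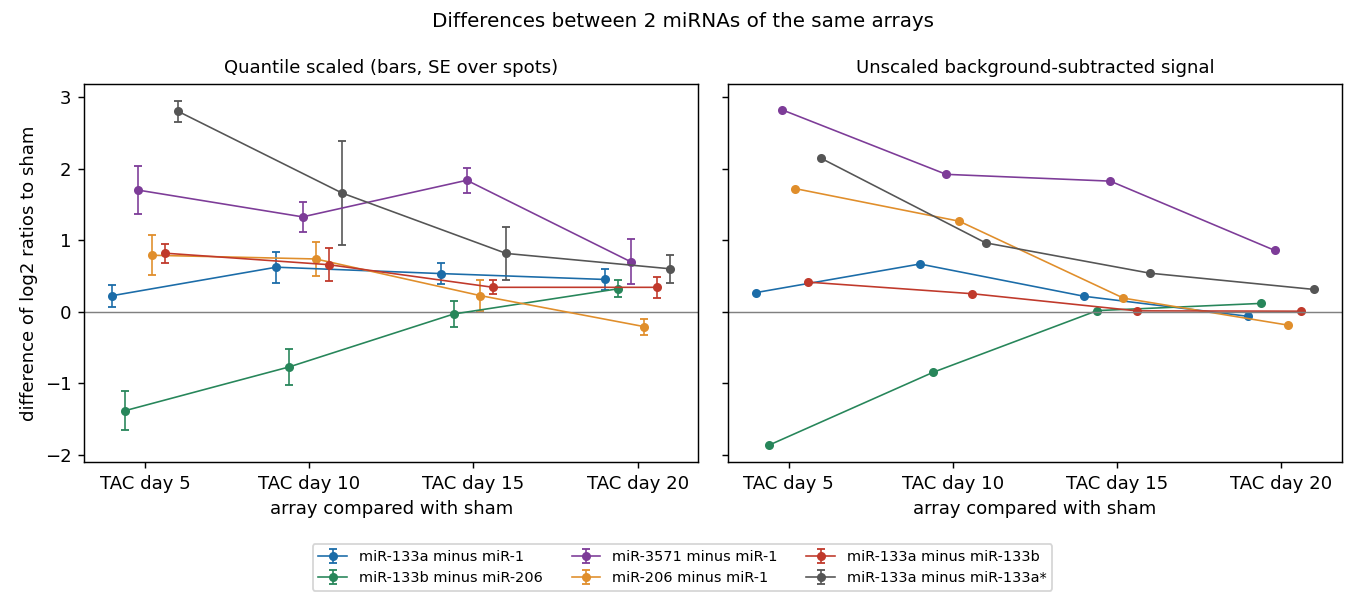
Difference between the log2 ratios to sham of 2 miRNAs (vertical axis) on each TAC array, from quantile-scaled values with bars for the SE over spots (left) and from unscaled background-subtracted signals (right). MiR-3571 minus miR-1 is above 0 throughout, and miR-133b minus miR-206 goes from -1.38 on day 5 to 0.32 on day 20 on the left.

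Between successive TAC arrays, miR-206 and miR-3571 moved most among the members with quantile scaling, which gave the steps below. MiR-206 changed by -0.85 from day 5 to day 10 with overlapping spots, by -0.84 to day 15 and by -0.50 to day 20, each of the later steps with separate spots. MiR-3571 changed by -1.17 to day 10 with separate spots, by 0.18 to day 15 with overlapping spots and by -1.21 to day 20 with separate spots. MiR-1 changed by -0.80 to day 10 with separate spots, and its later steps of -0.33 and -0.07 overlapped. Unscaled, the mean of miR-1 instead rose from 11366 units on day 5 to 13462 on day 10, with overlapping spots. Unscaled spots also overlapped between days 15 and 20 for miR-206 and between days 5 and 10 for miR-3571.

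The range over the 4 TAC arrays on the log2 scale was 2.20 for miR-3571 and 2.19 for miR-206, at ranks 22 and 24 of the 143 miRNAs above the floor on all 5 arrays. It was 1.19 for miR-1, 0.97 for miR-133a and 0.49 for miR-133b, at ranks 74, 94 and 129, beside a median of 1.22. MiR-133b was therefore the steadiest member after quantile scaling, but not without it. Over all 5 arrays its unscaled mean spanned 1.75-fold, against 1.34-fold for miR-1 and 1.63-fold for miR-133a. In the order of quantile-scaled levels, miR-133b ran from day 5 through days 10, 15 and 20 to sham, and all neighbours in that order overlapped. Its unscaled signal was lowest on day 5. The quantile-scaled order of miR-3571 was day 5, day 15, day 10, day 20 and sham, with separate spots between days 5 and 15 and between day 20 and sham.

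A fit across the arrays set the 4 TAC arrays as 1 group against sham with limma, which takes the times after surgery as replicates and assumes that the lone sham array varies like them. None of 273 miRNAs passed an adjusted p of 0.05 in limma, and 1 had an unadjusted p under 0.05. MiR-3571 had the highest value of the members, 1.71 (SE 0.86, limma adjusted p 0.718). MiR-133a was at 0.78 (SE 0.72, limma adjusted p 0.718), miR-206 at 0.70, miR-1 at 0.32 and miR-133b at 0.24, all with an SE at or above 0.67. MiR-1 and miR-133b turned to -0.20 and -0.11 with median scaling. The fit thus separated no member from the spread among the TAC arrays, which includes their change over time.

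Likeness of pattern was measured as the root mean square difference between the 4 log2 ratios of 2 miRNAs, over the 142 others above the floor on all 5 arrays. It rests on 4 ratios that share the sham array, and it is a description. The nearest to miR-1 were miR-29c at 0.17, miR-26b at 0.18 and the probe shared by miR-129-1* and miR-129-2* at 0.20. The nearest to miR-133a were miR-134* at 0.10, let-7e at 0.14 and miR-30d at 0.15, and to miR-133b miR-503 at 0.17, miR-106b* at 0.17 and miR-24-1* at 0.19. No other member was among the 3 nearest of any member.

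MiR-206 had miR-27a nearest at 0.16, followed by miR-1188-3p at 0.22 and miR-344b-1-3p at 0.23. MiR-27a itself read 1.65, 0.98, -0.01 and -0.32 on days 5 to 20. MiR-3571 had no such close neighbour: the nearest was miR-675, processed from the imprinted H19 RNA, at 0.39, then miR-743b at 0.64 and miR-207 at 0.65. MiR-675 read 2.11, 1.26, 1.72 and 0.57 on days 5 to 20. Between members, miR-1 and miR-133b were nearest to each other at 0.32, miR-1 and miR-133a stood at 0.48, miR-133b and miR-206 at 0.81, and miR-1 and miR-3571 at 1.46.

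Other muscle-enriched miRNAs were compared on the same arrays. Of 5 listed probes, 3 were measured here: miR-208, miR-208b-3p and miR-499, which are encoded in myosin heavy chain genes. MiR-208 read 0.30, -1.11, -0.69 and -0.34 on days 5 to 20, with 1 of its sham spots and 2 of its day 15 spots at the ceiling of the scale. MiR-208b-3p read -0.21, 0.83, 0.60 and 0.63, and miR-499 read -2.48, -1.96, -0.38 and -0.47. With quantile scaling none of these 3 read 2-fold or more above sham on day 5, while 4 members did, and with median scaling 2 members did, miR-1 and miR-133a no longer among them. MiR-208 minus miR-1 on day 5 was -0.79 ± 0.15 with quantile scaling, but -0.13 from the unscaled signals and -0.14 with median scaling. No member spot was at the ceiling.

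Markers of cell types moved with the arrays as well. The 3 cardiomyocyte markers measured of 4 listed, which are the same myosin-encoded miRNAs, exceeded the floor on each array. Their summed signal was 67237 units on the sham array and 40887, 32738, 51045 and 49689 in turn after TAC. The summed signal of the 2 endothelial markers was 54797 units on sham and 3769.5 on day 5, that of the 2 smooth muscle markers 37736 and 4252, and that of the 2 erythroid markers 19713 and 1144. The smooth muscle sum held miR-143, at a log2 ratio of -3.69 on day 5, and miR-145, at -0.13 with overlapping spots. The 4 leukocyte markers summed to 10765 units on sham and 4950 on day 5, with 3 of 4 above the floor on day 5. Their day 5 ratios differed. MiR-142-5p read 0.19 and miR-150 -1.15, both with overlapping spots, miR-142-3p read -0.28, and miR-223 was below the floor. The 4 fibroblast markers summed to 7962 units on sham and 5562 on day 5. On day 5, 1 of them, miR-21, read 2-fold or more higher, at 1.70. Of the others, miR-199a-3p and miR-199a-5p read 2-fold or more lower, at -1.02 and -1.33, and miR-214 read -0.02. On day 20 the endothelial, smooth muscle and erythroid sums were 49594.5, 30905.5 and 18683 units. The leukocyte and fibroblast sums of that day were 15276 and 6567.5 units. The part of the marker shifts in the day 5 ratios of miR-206 and miR-3571 was not tested.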

How the data were processed

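The deposited raw table gives, per the file headers, foreground intensity and background-subtracted intensity of 12312 spots for each of 5 arrays. The authors' deposited processed values are a ratio per probe: the median of its background-subtracted spots over a constant of the array, which was found here from the values (largest relative deviation 6.89e-07). No source used here names the scanner or its software. The header of the raw sham column carries day 15, while the label says 5 days; the column was assigned because it is an exact multiple of the processed sham values, and which day is right was not settled.

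Foreground values underwent normexp correction (offset 50), were quantile normalized over the spots of 678 rat probes and averaged over 4 spots on the log2 scale (limma 3.58.1, R 4.3.3), which shrinks ratios of dim probes. The floor was the median plus 3 MAD of empty and negative-control spots, which came to 30.6, 72.1, 46.4, 46.4 and 28.1 units from sham to day 20 and left 236, 162, 213, 207 and 257 rat miRNAs. The fit across arrays used limma's eBayes with trend, 273 miRNAs above the floor on at least 1 array, and Benjamini-Hochberg adjustment. It was run on simulated data with a smaller spread and a larger shift than the members had. That run does not show what the fit could find here. The p-values of the fit measure only the spread between these arrays.

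Members were named by their probes, and the probes of their opposite strands, the 3 nearest patterns per member, other muscle-enriched miRNAs and 4 probes of similar brightness were named by rule. The members and lists were chosen with earlier results of these data known. Alternatives were plain subtraction, no background correction, an offset of 10, median scaling, quantile scaling over every probe that is no control, spike-in scaling (47 of 51 probes), the authors' values, the median of spots, each region of the slide alone and other floors.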

Additional observations from a re-analysis of the deposited data

Results flagged for a closer look

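MiR-206 lay on opposite sides of sham early and late after TAC. Its log2 ratio to sham was 1.89 ± 0.26 (SE over 4 spots) on day 5 and -0.30 ± 0.09 on day 20, a difference of 2.19, and all 4 spots lay above sham on day 5 and below it on day 20. On day 10 the ratio was 1.04 ± 0.18, a difference of 1.34 from day 20, again with all spots above sham. Each array stands for 1 pool of hearts and both ratios share the sham array, so the difference between the times was not tested across animals. That sham array is labelled day 5, so on days 10 and 20 TAC cannot be told apart from time since surgery. With spike-in scaling the day 20 ratio was 0.31.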

How the results depend on the processing

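No paired analysis was possible because there was a single array for every group. MiR-3571 read 2-fold or more above sham under all 11 settings on days 5, 10 and 15, with ranges of 2.01 to 4.57, 1.20 to 3.71 and 1.44 to 2.54, and under 1 of 11 on day 20. MiR-206 did so under 11 settings on day 5 and 8 on day 10. Called directions turned for miR-1 on day 5, to -0.19 with median scaling and -0.17 with quantile scaling over all probes. Member ratios under 2-fold turned too. MiR-133b on day 5 turned in 3 of 11 settings, to -0.35 with median scaling. MiR-1 on day 10 turned in 3, from 0.30 to as low as -0.34, and miR-133a on day 20 in 3, from 0.35 to as low as -0.27. MiR-133b on day 20 turned in 4, from 0.01 to as low as -0.28. On days 10, 15 and 20 the other members turned in at most 3 settings. With spike-in scaling miR-133a* on day 5 turned to 0.35 and miR-208 on day 10 to 0.95. With median scaling the limma values of miR-1 and miR-133b turned to -0.20 and -0.11. Members at 2-fold numbered 2 on day 5 with median scaling, quantile scaling over all probes or the authors' values. On day 10 there were 1 with median scaling, quantile scaling over all probes or blocks 19 to 36 alone, and 5 with spike-in scaling, which gave 4 on day 15 and 1 on day 20. Of all rat miRNAs on day 10, 58 passed 2-fold, against 117 with plain subtraction, 166 with spike-ins and 91 in blocks 1 to 18. On day 15 the 15 became 60 with plain subtraction, 87 with spike-ins, 34 in the authors' values and 53 in blocks 1 to 18. On day 20 the 4 became 60 with plain subtraction, 7 with an offset of 10, 11 with median scaling, 8 with quantile scaling over all probes, 49 with spike-ins, 36 in the authors' values, 17 in blocks 1 to 18 and 10 in blocks 19 to 36. On day 5 the 63 higher and 40 lower were 54 and 43 with median scaling, 25 and 46 with quantile scaling over all probes, and 114 and 7 with spike-ins. The limma count was 0 under each alternative, with 1 to 9 miRNAs at an unadjusted p under 0.05, and 0 to 0 when each TAC array was left out in turn. The causes were not tested. Signals near the floors of 28.1 to 72.1 units, such as those of the opposite strands other than miR-133a*, give no order between arrays.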

Other observations

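The regions of the slide did not read alike. On the log2 scale the spots in blocks 19 to 36 exceeded those in blocks 1 to 18 by a median of 0.14 on sham and 0.19, 0.82, 0.53 and 0.31 in turn after TAC, over the 143 miRNAs above the floor on all arrays. MiR-3571 went the other way on days 5, 15 and 20, with differences of -0.92, -0.29 and -0.75, and miR-206 did on day 10 with -0.48. On day 5, miR-1, miR-133b and miR-133a also went the other way, with -0.17, -0.15 and -0.03. MiR-133a* differed by 2.43 on day 10 and 1.11 on day 15.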
